A study of Aspergillus nidulans with 24 samples.

Results

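Fungi take up iron with siderophores, small molecules that bind ferric iron. The genes of this system described here, from the filamentous fungus Aspergillus nidulans, are sreA (AN0176), hapX (AN8251), sidA (AN5823), sidC (AN0607), mirA (AN7800), mirB (AN8540), mirC (AN7485), amc-1 (AN8881) and ngn26 (AN8539). They were picked by symbol, 9 of the 8728 genes in the deposited table, with expression values of these cultures already known. Their values are therefore a description, and no test of them as a set was made.

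RNA-seq was run on mycelium of 2 strains in 4 minimal media, with 3 biological replicates in each of 8 groups and 24 libraries in all. The areB deletion strain had the genotype areBΔ::A.f. pyrG, pyrG89; argB2; nkuAΔ::argB, pabaB22; riboB2. Its control, called wild type, was biA1. AreB is a GATA-type transcription factor, as is SreA. Each strain was grown at 37 °C for 9 to 11 h on 0.1% fructose with 5 mM urea, 0.1% fructose with 10 mM ammonium tartrate, 1% glucose with 5 mM urea, or 1% glucose with 10 mM ammonium tartrate. The design asks how loss of areB alters expression under sugars and nitrogen sources that do or do not repress the use of others. Loss of areB cannot be told apart from the strains' other allele differences, nor the kind of sugar from its concentration, nor ammonium from tartrate. The table held the authors' mean normalized count for each group and no value per library, so neither the spread between replicates nor the depth is known for any group mean.

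A. nidulans secretes triacetylfusarinine C to capture iron outside the cell and keeps ferricrocin inside it. Both start from ornithine, which the SidA monooxygenase hydroxylates, and each needs its own nonribosomal peptide synthetase. SreA represses iron uptake when iron is plentiful, whereas HapX, a bZIP protein that acts with the CCAAT-binding complex, works when iron is scarce. Iron in the media was not part of the labelled design.

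Means were lowest in the deletion strain on fructose plus ammonium for every gene but sreA, and most of the enzyme and transporter genes had higher means on glucose than on fructose. The deletion strain on fructose plus ammonium held the lowest of the 8 means for 8 of 9 genes, against 8.97% of the 7759 genes whose mean over the groups reached 10. The wild type on glucose plus urea held the highest mean for 7 of 9, against 14.2% of those 7759 genes. These 2 counts were chosen after the values were seen.

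**Figure D1:**
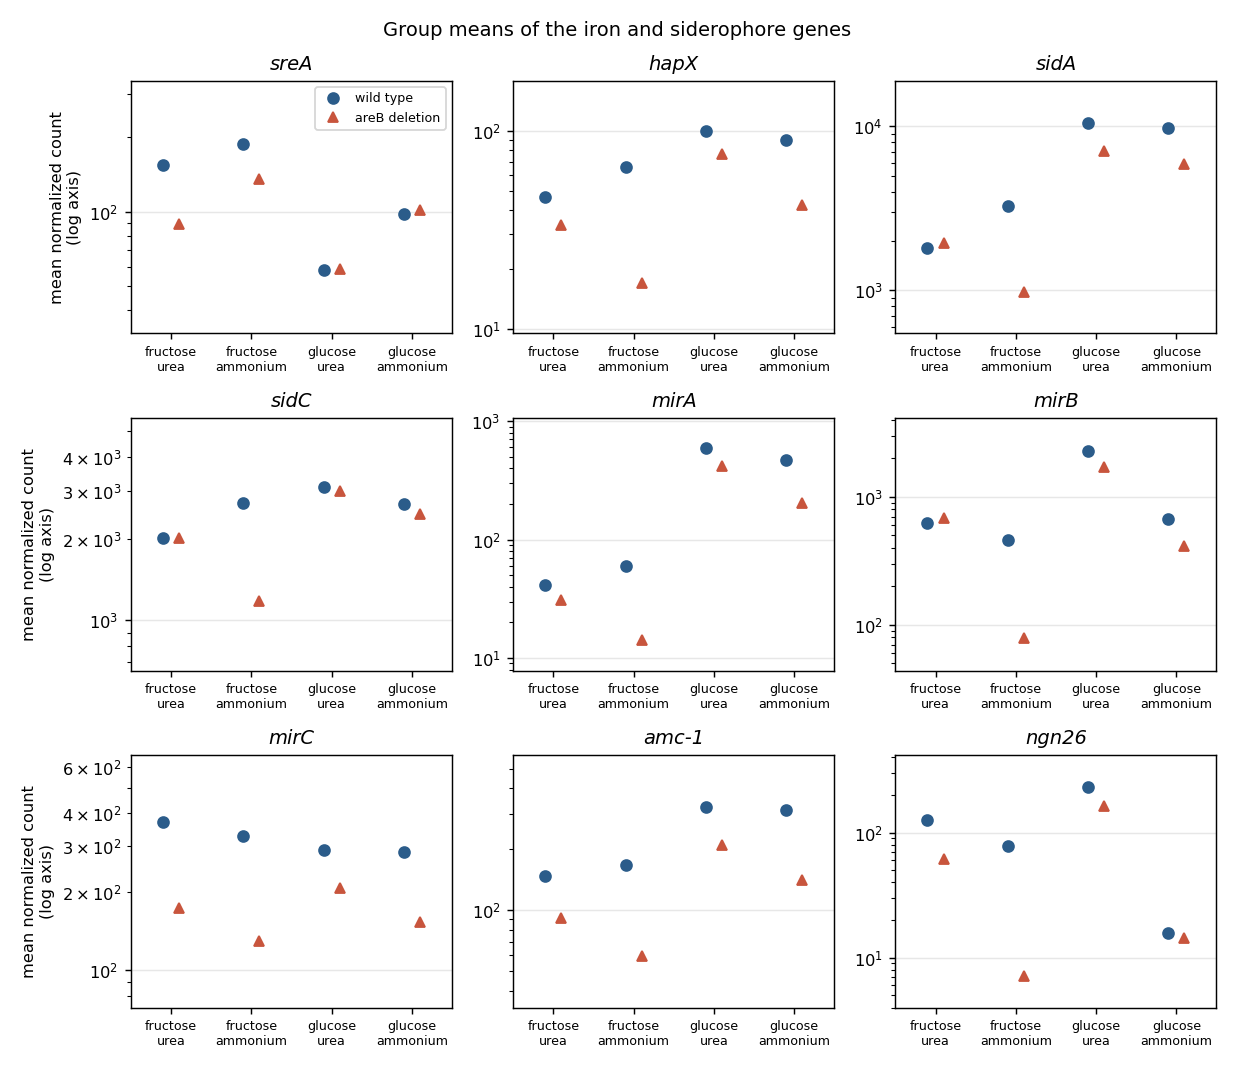
The authors' mean normalized counts (log axis, own range per panel) of the 9 genes in 4 media, with circles for the wild type and triangles for the areB deletion strain. No error is drawn because only group means were given. The triangle on fructose plus ammonium is the lowest point of every panel except that of sreA, whose lowest mean was 58.0 in the wild type on glucose plus urea.

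Among the regulators, sreA ran against the other genes. Its wild type means were 155 on fructose plus urea, 188 on fructose plus ammonium, 58.0 on glucose plus urea and 98.3 on glucose plus ammonium. The deletion means in the same order were 89.6, 136, 58.9 and 102. The repressor gene was thus higher on fructose than on glucose in both strains, and higher with ammonium than with urea on each sugar, with 3.24-fold between its highest and lowest means. In the authors' deposited table its log2 fold change, deletion over wild type, was -0.68 ± 0.56 on fructose plus urea (adjusted p = 0.74), where the value after ± is a standard error recovered from the adjusted p. It was -0.40 ± 0.55 on fructose plus ammonium in the authors' deposited table (adjusted p = 0.88), and 0.02 with urea and 0.05 with ammonium on glucose (adjusted p = 1 in each).

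The hapX gene had means of 46.4 and 65.8 in the wild type on fructose plus urea and with ammonium and of 99.6 and 89.7 on glucose plus urea and with ammonium. In the deletion strain the corresponding means were 33.6, 17.0, 76.9 and 42.4. Each deletion mean was below the wild type mean of the same medium, and the gap was widest on fructose plus ammonium. There the authors' deposited table gave a log2 fold change of -1.64 ± 0.56 (adjusted p = 0.092), which did not pass the threshold of 0.05. On glucose plus ammonium it was -0.95 ± 0.55 in the authors' deposited table (adjusted p = 0.82).

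The 3 subunits of the CCAAT-binding complex, with which HapX acts, had no call in any of the 4 media in the authors' deposited table. Subunit gene hapB had wild type means of 192, 218, 117 and 134 in the order of media above, and deletion means of 125, 116, 103 and 91.2. Its log2 fold change on fructose plus ammonium in the authors' deposited table was -0.85 ± 0.37 (adjusted p = 0.25). The values of hapE and hapC in that medium in the authors' deposited table were -0.46 ± 0.16 (adjusted p = 0.10) and 0.45 ± 0.30 (adjusted p = 0.59).

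Siderophore synthesis starts with sidA, the ornithine monooxygenase gene. Wild type means were 1799 on fructose plus urea, 3245 on fructose plus ammonium, 10488 on glucose plus urea and 9755 on glucose plus ammonium. In the deletion strain they were 1948, 982, 7057 and 5852. Both strains were thus several-fold higher on glucose, and the strains had similar means only on fructose plus urea. In the authors' deposited table the log2 fold change was 0.07 on fructose plus urea (adjusted p = 0.99) and -1.01 ± 0.76 on fructose plus ammonium (adjusted p = 0.65). The log2 ratio of the group means, with a pseudocount of 1, was -1.72 in the latter medium. On glucose the authors' deposited table gave -0.41 with urea and -0.52 with ammonium (adjusted p = 1 in each).

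The ferricrocin synthetase gene sidC was the steadiest of the 9, with 2.64-fold between its extremes. Its wild type means were 2002, 2709, 3092 and 2681 in the same order of media, and its deletion means were 2017, 1172, 2988 and 2467. Only the deletion mean on fructose plus ammonium lay well apart from the others. The authors' deposited table gave a log2 fold change of -1.04 ± 0.55 there (adjusted p = 0.42), and values between -0.10 and 0.01 in the other 3 media.

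The gene ngn26 is annotated as the ortholog of A. fumigatus sidG, whose product acetylates fusarinine C to triacetylfusarinine C, and its transcript is described as light-induced in competent mycelium. It had the largest ratio of urea over ammonium of the 9 genes, on glucose in the wild type. Wild type means were 125 on fructose plus urea, 78.8 on fructose plus ammonium, 230.4 on glucose plus urea and 15.8 on glucose plus ammonium. Deletion means were 61.2, 7.17, 164 and 14.3. The strains had nearly the same low mean on glucose plus ammonium, while on fructose plus ammonium the deletion mean was far below the wild type mean. There ngn26 fell, with a log2 fold change of -2.67 ± 0.63 in the authors' deposited table, a 6.36-fold lower level (adjusted p = 0.0027), and a log2 ratio of means of -3.29. It was -0.86 ± 0.62 on fructose plus urea (adjusted p = 0.67) and -0.13 on glucose plus ammonium (adjusted p = 1) in the authors' deposited table.

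Uptake was represented by mirA, mirB and mirC, which encode siderophore-iron transporters. The gene amc-1, named amcA in RefSeq, encodes a mitochondrial carrier described as a predicted siderophore transporter. In A. fumigatus the carrier AmcA moves ornithine out of mitochondria. The mirA gene had the widest range of the 9 genes, 41.7-fold. Its wild type means were 41.0 on fructose plus urea, 60.4 on fructose plus ammonium, 588 on glucose plus urea and 467 on glucose plus ammonium, and its deletion means were 31.0, 14.1, 418 and 204. Every mean on glucose exceeded every mean on fructose, whatever the strain. On fructose plus ammonium the authors' deposited table gave a log2 fold change of -0.94 ± 0.78 (adjusted p = 0.70), while the log2 ratio of the group means, with a pseudocount of 1, was -2.02. The authors' fold changes were thus drawn towards 0 relative to the ratio of means for this gene.

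The mirB gene had wild type means of 629, 457, 2292 and 667 in the order fructose plus urea, fructose plus ammonium, glucose plus urea and glucose plus ammonium. Its deletion means were 687, 79.1, 1720 and 410.0. The strains were close on fructose plus urea and furthest apart on fructose plus ammonium, where the authors' deposited table gave -1.78 ± 0.68 (adjusted p = 0.16) and the log2 ratio of means was -2.52.

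Levels of mirC hardly varied with the medium. Its wild type means were 369 on fructose plus urea, 327 on fructose plus ammonium, 289 on glucose plus urea and 284 on glucose plus ammonium. The deletion means in that order were 173, 129.5, 207 and 153, so that every wild type mean exceeded every deletion mean. In the authors' deposited table its log2 fold change was -1.01 ± 0.40 on fructose plus urea (adjusted p = 0.21), -1.24 ± 0.41 on fructose plus ammonium (adjusted p = 0.072) and -0.84 ± 0.40 on glucose plus ammonium (adjusted p = 0.59). On glucose plus urea it was -0.45 in the authors' deposited table (adjusted p = 1). The deletion value of mirC was thus below 0 in every medium and passed the threshold in none.

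The carrier gene amc-1 had wild type means of 147, 167, 323 and 314 in the same order of media, and deletion means of 91.3, 59.4, 210.0 and 142. Each deletion mean was lower than the wild type mean of its medium. On fructose plus ammonium amc-1 fell, with a log2 fold change of -1.38 ± 0.41 in the authors' deposited table, a 2.60-fold lower level (adjusted p = 0.037). It was -1.08 ± 0.40 on glucose plus ammonium (adjusted p = 0.24) and -0.64 ± 0.41 on fructose plus urea (adjusted p = 0.61) in the authors' deposited table.

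Across the 9 genes, 2 passed an adjusted p of 0.05 on fructose plus ammonium in the authors' deposited table, ngn26 and amc-1, both lower in the deletion strain, where 1.39% of 8639 genes with an adjusted p were called lower. None of the 9 passed in the other media, where the share of genes called in either direction was 2.22% on fructose plus urea, 1.88% on glucose plus urea and 1.91% on glucose plus ammonium in the authors' deposited table. Since the genes were chosen with this comparison in view, the counts say nothing beyond the genes themselves. The median over the 9 genes of the log2 fold change in the authors' deposited table was -1.24 on fructose plus ammonium, with values from -2.67 to -0.40, against a median of -0.03 over all genes. It was -0.40 on fructose plus urea, -0.35 on glucose plus urea and -0.53 on glucose plus ammonium in the authors' deposited table, against all-gene medians of -0.03, 0 and -0.02. Values below 0 were found for 9 of 9 genes on fructose plus ammonium, 6 on fructose plus urea and 8 in each glucose medium, where 49.8 to 52.6% of all genes lay below 0.

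**Figure D2:**
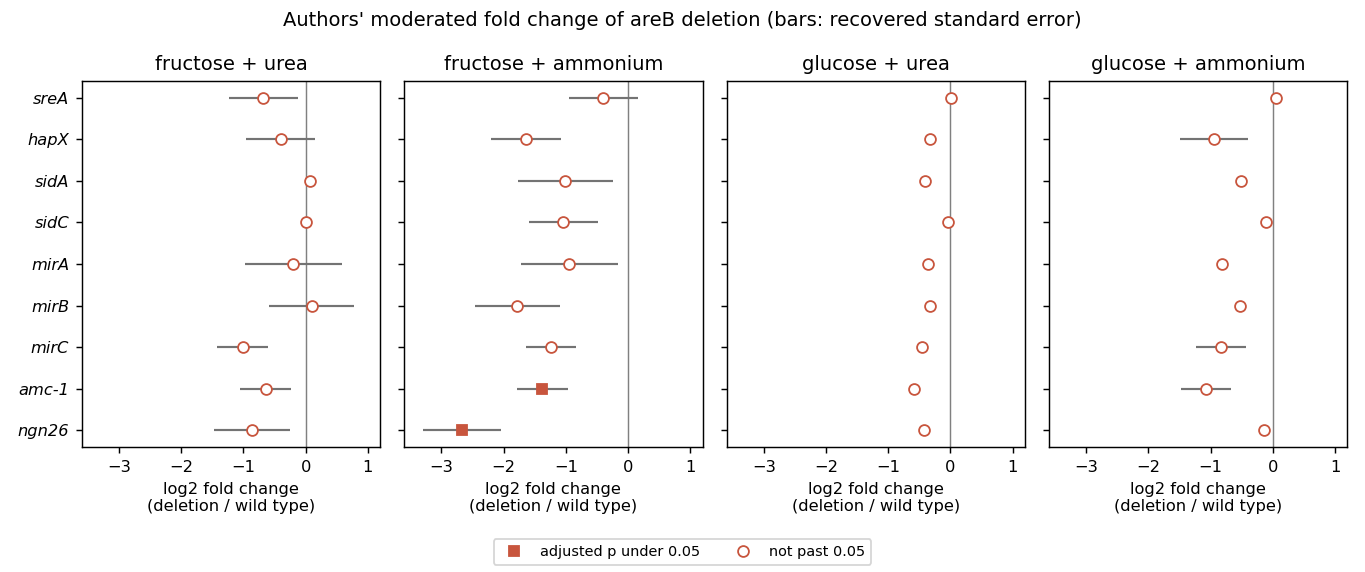
The authors' log2 fold change between the areB deletion strain and wild type for the 9 genes in the 4 media. Bars are 1 recovered standard error and are left out where the adjusted p did not fix one, as for all 9 genes on glucose plus urea. Filled squares mark an adjusted p under 0.05, reached by amc-1 and ngn26 on fructose plus ammonium, and all 9 values lie left of 0 in that panel.

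Whether the deletion effect differed between the 2 fructose media was not tested, because the genes had been chosen with these values known. The values with ammonium minus those with urea, from the authors' deposited table, were -1.81 ± 0.88 for ngn26, -1.88 ± 0.96 for mirB, -1.24 ± 0.79 for hapX, -0.74 ± 0.58 for amc-1, -0.75 ± 1.11 for mirA and -0.23 ± 0.57 for mirC. For sreA the difference was 0.28 ± 0.78 in the authors' deposited table. The differences of ngn26, mirB, hapX and amc-1 were larger than their standard error, and those of mirA, mirC and sreA were smaller. That compares sizes only, and no conclusion about the media is drawn from it. No error was recovered for sidA and sidC on fructose plus urea, and their differences in the authors' deposited table were -1.08 and -1.05.

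Carbon source separated the means of mirA most in each of the 4 comparisons, and those of sidA next in 3 of them. The glucose mean of mirA was 14.4-fold the fructose mean in the wild type with urea and 7.73-fold with ammonium, and 13.5-fold and 14.4-fold in the deletion strain. For sidA the glucose mean was 5.83-fold and 3.01-fold the fructose mean in the wild type with urea and with ammonium, and 3.62-fold and 5.96-fold in the deletion strain. These are ratios of group means with no replicate error, so no test was possible and they are given as sizes.

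With urea in the wild type, 5 of 9 genes were more than 2-fold higher on glucose on the log2(mean + 1) scale, as were 7.66% of the 7759 genes. They were hapX, sidA, mirA, mirB and amc-1. With ammonium in the wild type only sidA and mirA were, 2 of 9 against 5.32% of genes. In the deletion strain the count was 6 of 9 with urea, against 4.6% of genes, and 6 of 9 with ammonium, against 4.7%. The urea set there was the wild type set with ngn26 added, and the ammonium set was the wild type urea set with sidC added. The median over the 9 genes of the log2 ratio of fructose over glucose was -1.08 and -0.44 in the wild type with urea and with ammonium and -1.19 and -1.24 in the deletion strain, beside medians of 0.05, 0.03, 0.03 and 0.03 over the 7759 genes.

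The genes genes sreA, sidC, mirC and ngn26 departed from this. The sidC means on the sugars were nearly equal in the wild type with ammonium, and glucose exceeded fructose by more than 2-fold only in the deletion strain with ammonium, by 2.10-fold. The sreA mean was 2.68-fold higher on fructose than on glucose in the wild type with urea, 1.91-fold with ammonium, and 1.52-fold and 1.33-fold in the deletion strain. The log2 ratio of mirC stayed between -0.26 and 0.35 in all 4 comparisons. The wild type mean of ngn26 was 4.97-fold higher on fructose than on glucose with ammonium, but 1.84-fold higher on glucose than on fructose plus urea. In the deletion strain ngn26 was higher on glucose with either nitrogen source, by 2.68-fold with urea and 1.99-fold with ammonium.

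Nitrogen source separated the means of ngn26 and mirB most, except in the wild type on fructose, where sidA had the largest ratio. The urea mean of ngn26 was 1.59-fold the ammonium mean in the wild type on fructose and 14.5-fold on glucose, and 8.53-fold and 11.5-fold in the deletion strain. For mirB the urea mean was 1.38-fold and 3.44-fold the ammonium mean in the wild type on fructose and on glucose, and 8.69-fold and 4.20-fold in the deletion strain. Both genes thus had a smaller ratio in the wild type on fructose than in the other 3 comparisons.

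In the wild type on fructose 0 of 9 genes were more than 2-fold higher with urea on the log2(mean + 1) scale, where 4.64% of the 7759 genes were, and on glucose 2 of 9 were, against 1.38%. In the deletion strain it was 3 of 9 on each sugar, against 1.04% of genes on fructose and 1.56% on glucose. The genes were mirB and ngn26, joined by mirA in the deletion strain. The median over the 9 genes of the log2 ratio of urea over ammonium was -0.27 and 0.15 in the wild type on fructose and on glucose and 0.94 and 0.57 in the deletion strain, where the all-gene medians lay between -0.04 and -0.00.

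On fructose the nitrogen ratio of 5 genes had opposite directions in the strains. No share over all genes was computed for this count. For each of the 5 the ratio in the deletion strain rests on the mean on fructose plus ammonium, already given as its lowest. The log2 ratio of urea over ammonium was -0.49 in the wild type and 0.94 in the deletion strain for hapX, -0.85 and 0.99 for sidA, -0.44 and 0.78 for sidC, -0.55 and 1.08 for mirA, and -0.19 and 0.61 for amc-1. On glucose these genes had values from 0.04 to 0.33 in the wild type and from 0.27 to 1.03 in the deletion strain. For sreA all 4 ratios were below 0, from -0.78 to -0.27. No replicate error stands behind these ratios, so the change of direction was not tested.

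**Figure D3:**
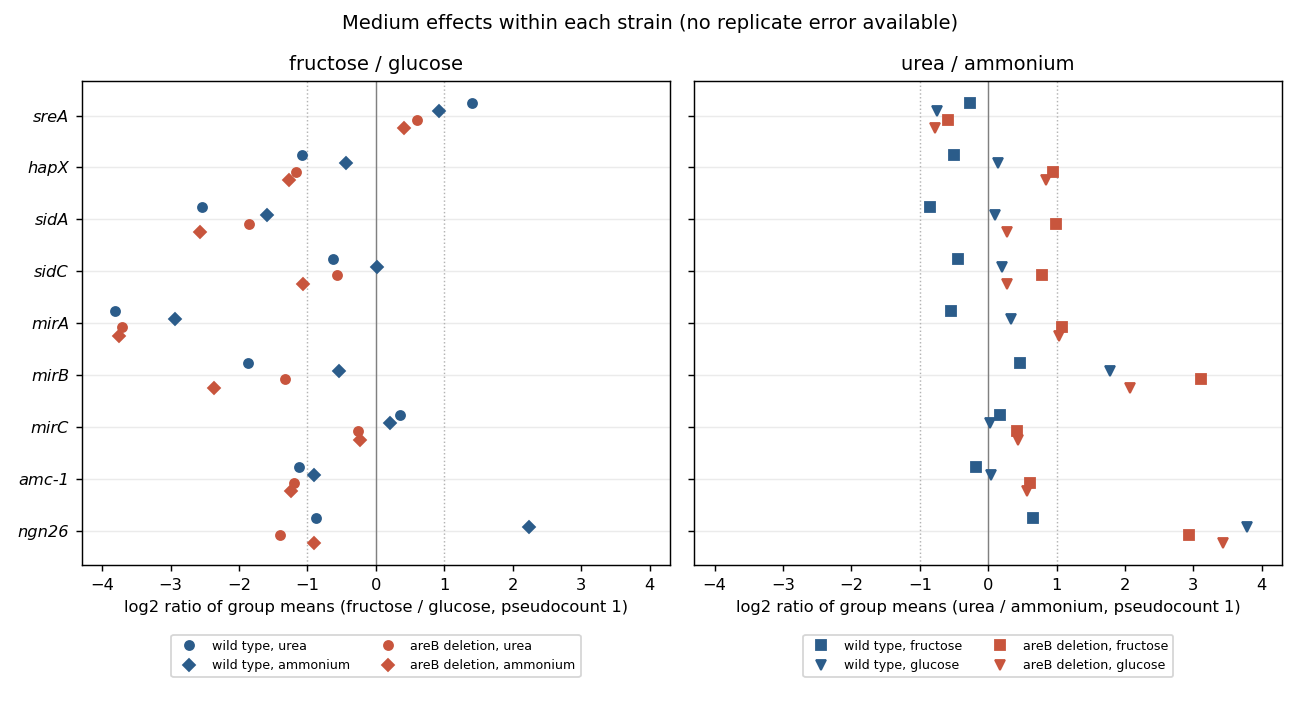
Log2 ratios of the authors' group means, with a pseudocount of 1, for fructose over glucose (left) and urea over ammonium (right) in each strain, with dotted lines at 2-fold. No errors can be drawn for these ratios. On the left mirA and sidA lie furthest below 0 and sreA lies above it. On the right ngn26 and mirB lie above 2-fold in 3 of 4 comparisons, and for hapX, sidA, sidC, mirA and amc-1 the squares of the strains fall on opposite sides of 0.

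The profiles of the 8 genes other than sreA were positively correlated in every pair, though weakly in some. Over the 8 group means on the log2(mean + 1) scale, Pearson's r was between 0.30 and 0.99 for the 28 pairs, with a median of 0.77. It reached 0.99 for sidA with mirA and 0.98 for hapX with amc-1, and was lowest for mirA with mirC. For the 8 pairs with sreA it ran from -0.69 to 0.18 with a median of -0.47, and only the pair with mirC was above 0. These values describe 8 means that share libraries across genes, and the groups are not independent replicates of a condition. The gene sreA was set apart after its values were seen, and r between pairs of other genes was not computed for comparison.

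Some of these genes lie beside each other or beside other siderophore genes in the gene order of RefSeq assembly ASM1142v1, and none overlaps a neighbour there. The mirB and ngn26 genes are adjacent, and r between them was 0.82. The sidC gene lies next to AN0608, annotated with orthologs in triacetylfusarinine C biosynthesis. AN0608 is followed by sidI, described as an enzyme gene of the same pathway. The wild type means of sidI were 288, 310.2, 1930 and 1144 and its deletion means 410.3, 115, 1547 and 893, in the order fructose plus urea, fructose plus ammonium, glucose plus urea and glucose plus ammonium. Like sidA, and unlike its near neighbour sidC, sidI was higher on glucose by more than 2-fold in both strains with either nitrogen source.

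The mirA gene lies next to AN7801, annotated with ester hydrolase orthologs and a role in siderophore-dependent iron import. The means of AN7801 were 7.16, 10.1, 68.8 and 45.5 in the wild type and 8.43, 1.76, 48.7 and 24.7 in the deletion strain. As with mirA, every mean on glucose exceeded every mean on fructose. In the authors' deposited table its log2 fold change on fructose plus ammonium was -1.42 ± 0.74 (adjusted p = 0.40).

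A further group of neighbours, none of them among the 9 genes, runs from sidF and sidH through sidD, the fusarinine C synthetase gene, and AN6237, a predicted ABC-type transporter gene, to mirD and sidJ, whose orthologs act in siderophore breakdown. Wild type means of sidD were 3072 and 3868 on fructose plus urea and with ammonium and 9783 and 9484 on glucose, and its deletion means were 3818, 1940, 8270 and 5688. On fructose plus urea all 6 genes had a log2 fold change above 0 in the authors' deposited table, from 0.18 to 0.59. On fructose plus ammonium all 6 lay below 0 in the authors' deposited table, from -1.03 for sidF to -0.21 for mirD. None passed an adjusted p of 0.05 in any of the 4 media in the authors' deposited table.

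**Figure D4:**
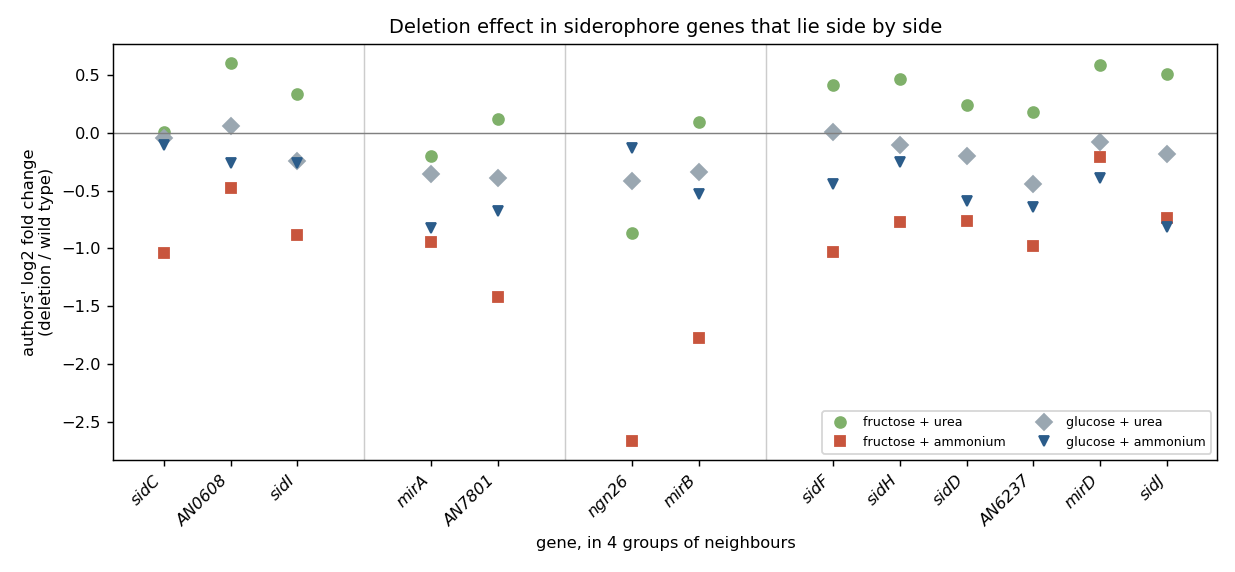
The authors' log2 fold change between the areB deletion strain and wild type in the 4 media for genes that lie side by side in RefSeq order, as 4 groups parted by vertical lines. In 11 of 13 genes the value on fructose plus ammonium (squares) is the lowest of the 4, and in mirD and sidJ that on glucose plus ammonium is. No share over all genes was computed for this count, and the groups were chosen after the values were seen. Among the 13, sidC, mirA, ngn26 and mirB were themselves picked with values known. The lowest value is that of ngn26, at -2.67. Standard errors, about 0.55 to 0.78 on fructose, are not drawn.

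Of a wider list of 16 siderophore gene symbols, 12 were in the table, among them the sid and mir genes just named, the transporter genes sit1 and sit2, the ferricrocin transacetylase gene sidL and npgA. By the table's descriptions sidB and sitA of this list encode a septation protein and a protein phosphatase, and not siderophore proteins. Of the 12, 10 lay below 0 on fructose plus ammonium in the authors' deposited table, against 52.0% of 8639 genes, with a median of -0.75. On fructose plus urea 3 of 12 did, against 52.4%, with a median of 0.35. Both counts are of the 12 with sidB and sitA included. A single gene was called, npgA, and in the opposite direction to ngn26 and amc-1. The share of all genes called higher on fructose plus ammonium was not computed. The npgA gene encodes the phosphopantetheinyl transferase that activates nonribosomal peptide synthetases.

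The npgA means were 64.3, 46.0, 54.7 and 61.5 in the wild type and 145, 171, 174 and 167 in the deletion strain. All deletion means exceeded all wild type means. By the authors' deposited table npgA rose by a log2 fold change of 1.74 ± 0.36 on fructose plus ammonium (adjusted p = 0.00028), 1.60 ± 0.36 on glucose plus urea (adjusted p = 0.00082) and 1.36 ± 0.35 on glucose plus ammonium (adjusted p = 0.0095). On fructose plus urea it was 1.10 ± 0.36 in the authors' deposited table (adjusted p = 0.073). Another 12 genes, gathered after the values were seen because their descriptions name siderophores, had no call in the authors' deposited table. On fructose plus ammonium 10 of them lay below 0 in the authors' deposited table, against 52.0% of 8639 genes, with a median of -0.31.

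Of 28 listed genes for iron-dependent enzymes and iron storage, 15 were in the table and none was called in any of the 4 media in the authors' deposited table. By their descriptions acoB and leuB of these encode a COP9 signalosome subunit and a regulator. None of the 15 is described as an iron storage gene, so the list gives no values for iron storage. The list's median log2 fold change in the authors' deposited table was 0.08 on fructose plus ammonium. There 7 of 15 lay below 0, against 52.0% of 8639 genes. The aconitase gene acoA had wild type means of 1158, 3318, 274 and 313 and deletion means of 768, 951, 391 and 497. Its log2 fold change on fructose plus ammonium was -1.41 ± 0.71 in the authors' deposited table (adjusted p = 0.37). The hyphal catalase gene catB had -1.41 ± 0.57 on fructose plus urea (adjusted p = 0.21), and hemA, of haem synthesis, had 1.16 ± 0.52 on glucose plus urea (adjusted p = 0.46), both in the authors' deposited table. The conidial catalase gene catA had wild type means of 182 and 31.7 on fructose plus urea and with ammonium, and deletion means of 184 and 105.

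Of these 15 genes, 5 were more than 2-fold higher on fructose in the wild type with urea, where 20.2% of the 7759 genes were. On glucose 2 were more than 2-fold higher, against 7.66% of those genes. Of the 12 genes with siderophore terms in their descriptions, 5 were higher on fructose and 4 on glucose, beside the same shares. The catalase-peroxidase gene cpeA had wild type means of 5635 and 3505 on fructose and 20.1 and 45.1 on glucose, and deletion means of 2929, 3438, 37.6 and 57.6. The cytochrome c peroxidase gene ccp1 had a log2 ratio of fructose over glucose between 1.71 and 2.10 in the 4 comparisons.

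Other metal uptake genes of the list were freA, a putative metalloreductase gene, and zrfA, zrfB and zrfC, zinc transporter genes. Only zrfB was called, on glucose plus ammonium, where it fell with a log2 fold change of -2.24 ± 0.55 in the authors' deposited table (adjusted p = 0.0039) with means of 382 in the wild type and 65.9 in the deletion strain. In the other media its means were 60.1, 69.0 and 86.6 in the wild type and 32.4, 43.7 and 48.0 in the deletion strain. The reductase gene freA had wild type means of 277, 407, 528 and 522 and deletion means of 249.5, 233.5, 351 and 349.6, with no call.

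Ornithine is the precursor of both siderophores. Of 10 listed ornithine and arginine genes, argB, argEF, agaA and otaA were in the table and none was called in any of the 4 media in the authors' deposited table. Ornithine transaminase gene otaA had a value of -1.73 ± 0.64 (adjusted p = 0.16) and arginase gene agaA had -1.43 ± 0.58 (adjusted p = 0.23) on fructose plus urea, as log2 fold changes in the authors' deposited table. The argB gene is also a marker locus of the deletion strain, so its values were not compared.

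In profile over the groups, the genes most like hapX among 2569 searched were AN7323, a predicted GPI-anchored cell wall protein gene (r = 0.98), AN3251 (0.98), AN7322 (0.97), AN2826, a calcium-induced transcript (0.95), and AN6506, a putative C-4 sterol methyl oxidase gene (0.95). The least like it were AN11081 (-0.97), AN1680, an NRPS-like enzyme gene (-0.96), and AN0764, a gene with a catechol dioxygenase domain (-0.95). The genes most like sreA were AN7761 (0.98), CYP659A1, a cytochrome P450 gene (0.97), AN3203, an F-box protein gene (0.96), AN3207 (0.96) and AN2476 (0.95). For the mean of the 9 standardised profiles they were AN3251 (0.99), AN7322 (0.96), AN2826 (0.96), AN7323 (0.95) and AN1894 (0.94). With 8 points and a search over 2569 genes such values are only a ranking.

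The strain labels were checked on areB, listed at 0 in all 4 deletion groups in the authors' deposited table. Its wild type means were 67.9 to 93.9. That check cannot bear on the sugar or nitrogen labels. The other GATA factor genes areA, nsdD, lreA and lreB had no call in the authors' deposited table. The 7 conidiation markers found were low, summing to 173 to 276 normalized counts a group. Listed rodA and dewA were not matched and are not in that sum. The gene brlA, the regulator that starts conidiation, was at 0 in 3 groups. None of the 7, among them brlA, wetA, vosA and conJ, was called in the authors' deposited table. The 6 sexual development markers summed to 2882 and 1435 in the wild type on fructose plus urea and with ammonium and to 871 and 747 in the deletion strain, but to 339 to 458 in the 4 glucose groups. Of these esdC and mutA fell on fructose plus urea in the authors' deposited table, and cetA, described with a role in conidial germination, rose on fructose plus ammonium. Means of mutA were low there, 13.7 in the wild type and 0.36 in the deletion strain on fructose plus urea. Not called in the authors' deposited table were esdC on fructose plus ammonium, at -2.46 (adjusted p = 0.055), and nosA on fructose plus urea, at -2.39 (adjusted p = 0.069). Without cetA, an alternative chosen after the values were seen, the sums were 2777 and 1397 in the wild type on fructose and 396 and 299 in the deletion strain on fructose, against 296 and 332 in the wild type and 319 and 219 in the deletion strain on glucose. In the deletion strain the sum on fructose plus ammonium was then below that on glucose plus urea. The part of these genes in the results was not tested. Among 8 redox defence genes trxB, a putative thioredoxin reductase gene, was the only gene called, in 3 media. Its log2 fold change in the authors' deposited table was -2.49 ± 0.64 on fructose plus ammonium (adjusted p = 0.0074), -2.27 ± 0.64 on glucose plus urea (adjusted p = 0.024) and -3.47 ± 0.64 on glucose plus ammonium (adjusted p = 1.1e-05). In bulk mycelium fewer cells expressing a gene and less RNA per cell cannot be told apart.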

How the data were processed

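The authors deposited 1 table of 8728 genes with 3 kinds of value. A fold (the ratio of the deletion strain to the wild type) and its adjusted p-value were deposited for each of the 4 media. The signal deposited for each of the 8 groups was made by the authors as the mean normalized count over 3 libraries. The 24 libraries were ribosomal RNA-depleted and sequenced as paired reads of 100 bases, per the labels' protocols. DESeq2 1.16.1, HTSeq 0.9.1, GATK, Trimmomatic and FastQC are named in the submitters' processing notes. For the aligner, the build and the annotation nothing is given in the sources used here. Single libraries and their depths were not analysed here, so no interval or test of group means could be made. The authors' adjusted p sets the difference between the strains against an error estimated from their libraries alone.

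From the table, log2 fold changes and log2 ratios of means with a pseudocount of 1 were computed with Python 3.11.15, numpy 2.4.6, pandas 2.3.3 and scipy 1.17.1. A gene was called where the authors' adjusted p was under 0.05, available for 8639 genes. For medium comparisons, which have no test, 2-fold was used, over 7759 genes whose mean reached 10. Standard errors were recovered by inverting the Benjamini-Hochberg adjustment, tested on simulated data, and kept where the adjusted p fixed the deviate within 1.1-fold. The simulated fold changes were not drawn towards 0, so the recovery of these errors was not checked for values that were. Such errors describe the authors' fold changes and not the ratios of means. Recovered errors were kept for 8464 genes on fructose plus ammonium but only 1229 on glucose plus urea, where 7410 genes had an adjusted p of 1.

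The members and the 9 other gene lists were chosen with earlier results of these data known. Of each list, genes called in any medium or, without any, up to 4 with the largest change are named. Other genes named with values, such as sidD, sidI, cpeA, ccp1, freA and the neighbours, were chosen after their values were seen. Of 97 listed symbols, 55 were found by symbol, 9 through RefSeq and 33 were not matched. RefSeq matched 8257 of the 8728 identifiers and gave gene order only.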

Additional observations from a re-analysis of the deposited data

How the results depend on the processing

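The count of the 9 genes called on fructose plus ammonium was 2 at an adjusted p of 0.05, 1 at 0.01, where ngn26 was called, and 4 at 0.1, where hapX and mirC joined ngn26 and amc-1. The other 94 of 96 alternative values of counts and medians, over pseudocounts of 0.5 and 5, recentred or rescaled means, no filter on low values and the ratio of means, kept their direction and side. Of single genes and lists 216 alternative values stayed within their error or count and 8 moved, none with a change of sign. On fructose plus ammonium the log2 ratio of means was -1.72 for sidA, -2.02 for mirA and -2.52 for mirB, in place of the authors' -1.01, -0.94 and -1.78, and with a pseudocount of 0.5 it was -3.37 for ngn26. The cause was not tested. Scaling all groups to the same total shifted log2 ratios by at most 0.11. No paired analysis was possible because the table held no values per library, and for the same reason no replicate could be left out. The recovered standard error of the 9 genes on fructose plus ammonium had a median of 0.56 on the log2 scale. The single errors ran from 0.41 for mirC to 0.78 for mirA. Differences near such an error could not be told from 0, and much larger ones could be missed too. With -1.64 ± 0.56 in the authors' deposited table (adjusted p = 0.092), hapX was not called there.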
